A study of Rattus norvegicus with 46 samples.

Results

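10 genes that mark platelets and the megakaryocytes that shed them were followed by their gene names through lung and whole blood of rats that had inhaled silica. They are 10 of the 30045 genes in the count tables, and all 10 were found in each of the 4 tables. By role they are the chemokines Pf4 and Ppbp, the adhesion receptor subunits Itga2b, Itgb3 and Gp9, the ADP receptors P2ry12 and P2ry1, and 3 other platelet proteins, Treml1, Tubb1 and Plek. The rule that selects them is the gene name and uses no measured value.

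The animals were male Fischer 344 rats, described as aged in the study's title, with no age in years or months. They breathed either filtered air or Min-U-Sil 5, a fine crystalline silica dust, at 15 mg/m3 in whole-body chambers for 6 hours a day on 5 days. Lung and blood were taken 1 day or 6 months after exposure. No genetic change or other agent is given for any group. The 46 samples form 8 groups of tissue, time and exposure, each with 6 samples except the 4 air lungs of 6 months. In lung, 5 pairs of samples within a group differed by little more than counting noise (7.69% to 9.65% of their genes at p under 0.05 in a chi-square test, against 21.3% to 73.1% in the other 46 lung pairs), and each pair was averaged and counted as 1 library. The 41 libraries that remained are, for lung, 4 with air and 6 with silica at 1 day and 2 with air and 5 with silica at 6 months, and for blood 6 of each kind at both times. An averaged library carries both of its sample numbers, as in air 19-24. Nothing in the labels states that each sample came from its own animal, so a p-value here reflects only how far these libraries scatter, and that scatter may be technical.

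Platelets are small cells without a nucleus that carry messenger RNA inherited from the megakaryocyte. When a vessel wall is injured, they bind to it through glycoprotein complexes, among them the complex that holds Gp9, and are activated through receptors for ADP and other agonists. The integrin made of Itga2b and Itgb3 then binds fibrinogen and links platelets to each other, while granules release Pf4, Ppbp products and growth factors. Megakaryocytes are mainly found in bone marrow, and in rodents they also sit in spleen and in the small vessels of the lung.

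Promoter sequences are shown because most of these genes varied together across blood libraries. Whether promoter sequence has a part in that was not tested. RefSeq promoter windows on the rat assembly GRCr8 matched 6 of the 10 genes (Ppbp, Itga2b, Gp9, P2ry1, Treml1 and Tubb1). The count tables were made on another build, Rnor_6.0, and no position was carried from one to the other. The 250 bases before the annotated start are given 5′ to 3′ on the gene's strand for Itga2b at chr10:87925834-87926083 (minus strand), Gp9 at chr4:121792592-121792841 (plus strand), Treml1 at chr9:20139934-20140183 (minus strand) and P2ry1 at chr2:147391411-147391660 (plus strand). The first 3 are genes that moved together in blood and P2ry1 is an ADP receptor that followed them less closely. Capitals mark GATAA or its reverse complement TTATC, a core of sites for GATA factors, and CCGGAA or its reverse complement TTCCGG, a core of sites for ETS factors.
Itga2b: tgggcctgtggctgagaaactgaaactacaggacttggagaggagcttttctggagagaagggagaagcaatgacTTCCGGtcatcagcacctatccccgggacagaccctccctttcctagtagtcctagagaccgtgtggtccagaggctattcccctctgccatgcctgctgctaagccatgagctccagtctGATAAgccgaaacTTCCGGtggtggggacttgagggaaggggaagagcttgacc
Gp9: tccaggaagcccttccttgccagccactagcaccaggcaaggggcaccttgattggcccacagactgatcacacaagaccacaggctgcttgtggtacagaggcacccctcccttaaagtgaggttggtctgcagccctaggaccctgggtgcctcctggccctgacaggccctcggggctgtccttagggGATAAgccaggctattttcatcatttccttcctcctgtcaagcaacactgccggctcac
Treml1: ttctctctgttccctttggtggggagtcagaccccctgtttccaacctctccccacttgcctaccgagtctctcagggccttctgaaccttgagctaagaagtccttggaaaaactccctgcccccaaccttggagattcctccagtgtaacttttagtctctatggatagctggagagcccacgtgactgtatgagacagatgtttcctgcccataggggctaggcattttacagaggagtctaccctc
P2ry1: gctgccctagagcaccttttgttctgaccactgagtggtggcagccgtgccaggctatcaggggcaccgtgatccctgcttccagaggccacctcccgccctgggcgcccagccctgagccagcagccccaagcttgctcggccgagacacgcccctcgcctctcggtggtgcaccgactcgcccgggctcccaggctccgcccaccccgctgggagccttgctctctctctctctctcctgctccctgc

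The Itga2b window holds GATAA 54 to 50 bases before the start and TTCCGG at 175 to 170 and at 41 to 36 bases before it. The Gp9 window holds GATAA 59 to 55 bases before the start and no ETS core. The windows of Treml1, P2ry1, Ppbp and Tubb1 held neither motif, and no window of the 6 genes held TGAGTCA or its reverse complement TGACTCA, the core shared by NF-E2 and AP-1 sites. Among all 33469 rat promoter windows of 250 bases, 23.5% held the GATA core, 12.6% the ETS core, 4.05% TGAGTCA or its reverse complement, and 2% both the GATA and the ETS core, which Itga2b has. No motif overlapped another in the printed windows. In the GRCr8 gene table, Pf4 and Ppbp are neighbours on chromosome 14 with 0 protein-coding genes between them, and P2ry12 and P2ry1 lie on chromosome 2 with 11 between them.

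Lung samples held between 13.4 M and 24.6 M estimated counts, and blood samples between 10.6 M and 17.5 M. Levels are given as CPM, a gene's counts scaled to the size of its library, after correction by TMM factors, which allow for a few abundant genes taking up reads. These factors spanned 0.95 to 1.03 in lung but 0.697 to 1.30 in blood at 1 day and 0.521 (silica 31) to 1.93 (air 25) in blood at 6 months, so blood levels depend more on the scaling. A panel of 10 lung epithelial markers summed to 15850 to 63470 CPM in lung libraries and to 164.5 to 590 CPM in blood libraries. The erythroid panel of 15 genes summed to 20970 to 147200 CPM in blood after the globin depletion and to 1465 to 4333 CPM in lung, so the labelled tissues differed in the direction of their names.

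Platelet genes were far higher in blood than in lung for 6 of the 10 genes, compared in air-exposed rats on CPM per total counts, with no test because the tissues were prepared with different kits and only the blood was depleted of globin. Itga2b, the integrin subunit of the megakaryocyte lineage, averaged 1077 CPM in blood (827.4 to 1223) and 10.6 in lung (9.29 to 12.1) at 1 day, a ratio of 101, and the ratio was 162 at 6 months. Treml1, a receptor stored in platelet granules, had ratios of 110 and 136, and Pf4, a heparin-binding chemokine that is among the most abundant granule proteins, had ratios of 76.7 and 91.3 at 1 day and 6 months. Tubb1, the tubulin of the platelet's marginal band, had ratios of 46.5 and 81. Ppbp and Gp9 averaged 13.8 and 31.02 CPM in blood at 1 day and stood on 2 to 8 counts in the air lungs of both times, so no ratio is given for them.

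The remaining 4 genes stood closer together in the 2 tissues. Itgb3, which also pairs with another alpha subunit to form the vitronectin receptor of endothelial and other cells, was 6.52 and 8.46 times as high in blood as in air lung at 1 day and 6 months. P2ry12, the target of clopidogrel, was 6.99 and 8.35 times as high. Plek, a protein kinase C substrate of platelets that white blood cells also carry, was 3.92 times as high in blood at 1 day and 0.746 times at 6 months. P2ry1 was at a similar level in both tissues, with ratios of 0.901 and 0.922. In bulk tissue, fewer cells of a type and less RNA per cell cannot be told apart, and this holds for every level given here.

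The same counts were also set against Itga2b counts in the same library. For the air groups this restates the blood to lung ratios above in another form and is not a separate result. Treml1 stood at a median of 12.4 to 13.3 counts per 100 Itga2b counts in the 4 blood groups and at 12.0 to 15.4 in the 4 lung groups. Gp9 stood at 2.72 to 3.13 in blood and 2.33 to 4.0 in lung, where it rests on few counts. Tubb1 was at 8.71 to 9.92 in blood and 18.6 to 20.4 in lung. Itgb3, by contrast, was at 13.97 to 16.2 in blood and 199.6 to 282.6 in lung, P2ry12 at 2.85 to 3.58 against 43.0 to 79.4, and P2ry1 at 0.517 to 0.846 against 68.9 to 94.95. Counts are not per length, so these ratios compare 1 gene between groups and not genes with each other.

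**Figure D1:**
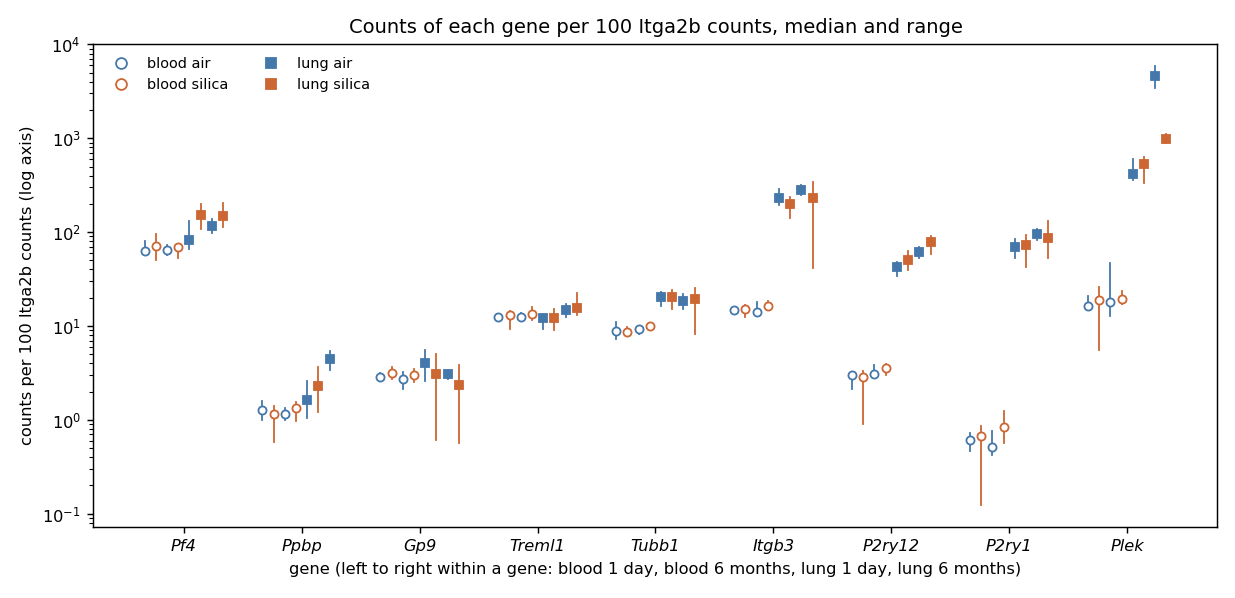
Counts of 9 platelet genes per 100 Itga2b counts, on a log axis, with the median (symbol) and range over libraries (line) of each of the 8 groups; open circles are blood, filled squares lung, blue air and orange silica. Treml1 and Gp9 lie at like heights in both tissues, whereas Itgb3, P2ry12, P2ry1 and Plek lie well above their blood values in lung; Ppbp in silica lungs of 6 months is not drawn because some libraries had no count.

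The first comparison asked how these genes stood in the lung 1 day after silica. Of 15724 genes tested, 1836 (11.7%) passed edgeR's quasi-likelihood test at an adjusted p under 0.05, 7.61% higher and 4.07% lower in silica (1185 genes without air 06). Of the platelet genes 8 had enough counts to be tested, and 1 rose (Pf4) and 1 fell (Itgb3), while 6 did not pass. The median log2 fold change of the 8 was 0.15, against 0.000942 over all genes tested. Each tested gene with its libraries is drawn in the plot of lung levels by library.

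**Figure D2:**
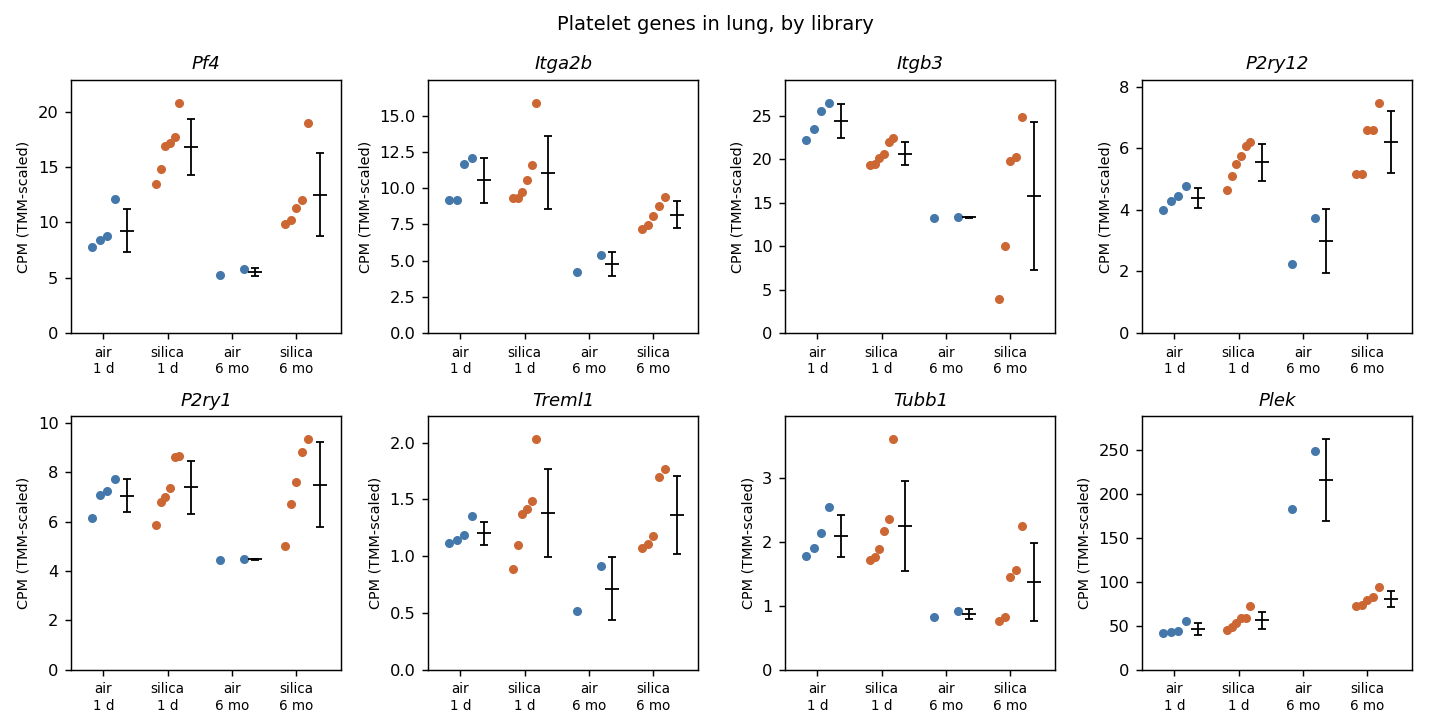
TMM-scaled CPM of the 8 platelet genes tested in lung, 1 point per library, for air (blue) and silica (orange) at 1 day and 6 months; bars show the mean ± SD beside the points. At each time, Pf4 is higher in every silica library than in every air library of that time, and Plek is highest in the 2 air libraries of 6 months.

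Pf4 was at 8.38, 12.1, 8.82 and 7.74 CPM in the 4 air lungs and at 16.9, 14.8, 20.8, 17.7, 17.1 and 13.5 CPM in the 6 silica lungs. Every silica library lay above every air library, which 7.4% of all genes tested did. The means were 9.26 ± 1.95 CPM in air (SD, n = 4) and 16.8 ± 2.54 in silica (n = 6), a log2 fold change of 0.86 ± 0.14 (SE, edgeR adjusted p = 0.00167). The call held in each of 16 other settings, with estimates from 0.78 to 1.01 and adjusted p up to 0.0142. Ppbp, whose products activate neutrophils, was on 2 to 6 counts in every library and was not tested. Set against Itga2b, Pf4 stood at a median of 81.9 counts per 100 Itga2b counts in air (66.3 to 131.9) and 152.5 in silica (107.8 to 197.6), ranges that overlapped.

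Among the adhesion receptors, Itga2b was at 9.18 to 12.1 CPM in air and 9.30 to 15.9 in silica, with the highest value in silica 14 and the groups overlapping (log2 fold change 0.07 ± 0.16, adjusted p = 0.84). Itgb3 was at 26.5, 22.2, 23.5 and 25.6 CPM in air and at 19.4, 19.3, 20.2, 22.0, 22.4 and 20.6 CPM in silica. The highest silica library lay just above the lowest air library, and the log2 fold change was -0.24 ± 0.07 (adjusted p = 0.0346). That call was lost when any of air 02-07, air 06, silica 10, silica 11 or silica 12 was left out (adjusted p 0.0509 to 0.115) and in a fit over all 4 lung groups (0.863). Gp9, a subunit of the receptor for von Willebrand factor, was on 1 to 9 counts and was not tested.

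P2ry12 was at 4.28, 4.46, 4.78 and 3.99 CPM in air and at 5.48, 5.75, 4.65, 5.09, 6.22 and 6.08 CPM in silica. Of the silica libraries, silica 12 alone lay within the air range, and the difference did not pass the test (log2 fold change 0.34 ± 0.12, adjusted p = 0.0843). It passed only with the near-identical libraries kept as separate samples (0.0472). P2ry1 (0.07 ± 0.12, adjusted p = 0.803), Treml1 (0.20 ± 0.23, 0.68), Tubb1 (0.11 ± 0.23, 0.836) and Plek (0.28 ± 0.13, 0.231) gave overlapping groups. Plek was at 42.3 to 55.8 CPM in air and 44.7 to 72.5 in silica, and Treml1 stood on 15 to 31 counts.

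Other platelet genes, from 5 lists of 74 genes, gave 6 higher and 6 lower of 70 tested at 1 day in lung, where 7.61% of all genes were higher and 4.07% lower. Their median log2 fold change was 0.0223. Of 26 signalling and cytoskeleton genes 5 were higher and 0 lower, led by the thromboxane synthase Tbxas1 (0.56 ± 0.07, adjusted p = 0.000273), the kinase Btk (0.44 ± 0.07, 0.00138) and the scavenger receptor Cd36 (0.23 ± 0.06, 0.0189), none of which is restricted to platelets. Of 12 adhesion receptors tested, 0 were higher and 2 lower, Cd9 (-0.24 ± 0.04) and Esam (-0.15 ± 0.04). Of 14 granule genes 2 were lower, the growth factor Pdgfa (-0.27 ± 0.05) and Vwf (-0.18 ± 0.05), which endothelium also makes. Of 7 activation receptors 1 was higher, Adra2a (1.32 ± 0.32), and 1 lower, P2rx1 (-0.31 ± 0.09). Of 11 transcription factors of megakaryocytes 1 was lower, Meis1 (-0.26 ± 0.07). Of these 10 named genes, Cd9, Pdgfa, Tbxas1 and Btk kept their call whichever library was left out, and the other 6 did not. Cd9 (adjusted p = 0.0605) and Tbxas1 (0.0787) lost it in the fit of all 4 lung groups.

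Markers of other cells moved at the same time. Of 10 monocyte and macrophage genes tested 6 were higher, and their summed level was 711.6 to 764.3 CPM in air and 816.5 to 899.9 in silica. Of 11 neutrophil genes 8 were higher (369.3 to 456.3 CPM summed in air, 1223 to 1648 in silica), and of 12 endothelial genes 5 were lower (6408 to 8019 in air, 5712 to 6582 in silica). The erythroid genes summed to 2157 to 3323 CPM in air and 1465 to 2722 in silica, with 1 of 12 higher. Of 10 lung epithelial genes 5 were higher and 2 lower, and they summed to 27770 to 31750 CPM in air and 32520 to 36520 in silica. No gene of these lists was at 0 in every library, and the part of these cells in the Pf4 and Itgb3 values was not tested.

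At 6 months the lung differed more widely, with 3190 of 16265 genes (19.6%) past the test, 9.52% higher and 10.1% lower. Fewer passed without air 19-24 (57), air 20-25 (1063), silica 34 (1756) or silica 35 (1749). Of 8 platelet genes tested, 3 were higher in silica, Pf4, Itga2b and P2ry12, and 1 was lower, Plek. Their median log2 fold change was 0.757, against -0.00237 over all genes tested. In 5 of the 8 every silica library lay above both air libraries, which 21.2% of all genes did, and in 1 (Plek) every one lay below, which 23.7% did. All of this rests on 2 air libraries, each the average of a near-identical pair.

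Pf4 was at 5.77 and 5.28 CPM in the 2 air lungs and at 9.87, 10.2, 19.01, 11.3 and 12.1 CPM in the 5 silica lungs, with silica 33 far above the others. The log2 fold change was 1.18 ± 0.29 (adjusted p = 0.0289). Ppbp was on 4 counts in each air library and on 0 to 4 counts in the silica libraries, and was not tested. Silica 33, silica 34 and silica 35 had none, and every silica library (0 to 0.164 CPM) lay below both air libraries (0.182 and 0.231 CPM), opposite to Pf4, but these levels are near that of 3 counts (0.123 to 0.189 CPM), and no fold is given. Itga2b was at 4.21 and 5.37 CPM in air and at 8.75, 7.17, 9.42, 7.48 and 8.11 CPM in silica (0.77 ± 0.19, adjusted p = 0.0312). P2ry12 was at 2.25 and 3.73 CPM in air and at 5.16, 6.59, 7.47, 5.15 and 6.60 CPM in silica (1.04 ± 0.28, adjusted p = 0.0357). For these 3 genes the silica libraries lay above both air libraries, and the relative gap between the air libraries was widest for P2ry12.

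None of the 3 rises passed the test without air 19-24, air 20-25, silica 34 or silica 35, and P2ry12 was also lost without silica 32. Their estimates in these fits stayed above 0, from 1.0 to 1.27 for Pf4, 0.62 to 0.98 for Itga2b and 0.75 to 1.48 for P2ry12 over all settings, with adjusted p up to 0.193, 0.261 and 0.28. P2ry1 was at 4.501 and 4.463 CPM in air and at 7.63, 9.34, 5.0, 8.84 and 6.72 CPM in silica, and did not pass (0.75 ± 0.27, adjusted p = 0.0902). Treml1 was at 0.519 to 0.911 CPM in air and 1.07 to 1.77 in silica on 9 to 35 counts (0.91 ± 0.37, adjusted p = 0.128). Both passed with near-identical libraries kept separate (P2ry1 0.00584, Treml1 0.0264) and in the fit of all 4 lung groups (0.0133 and 0.0427). Tubb1 overlapped between groups (0.66 ± 0.47, adjusted p = 0.363).

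Itgb3 differed widely among the silica lungs of 6 months. It was at 13.4 and 13.3 CPM in air and at 20.2, 24.8, 3.94, 19.8 and 10.1 CPM in silica, so 3 silica libraries lay above air and 2, silica 33 and silica 35, below it (0.25 ± 0.59, adjusted p = 0.807). Silica 33, with the lowest Itgb3 and the highest Pf4, also had the highest summed lung epithelial (63470 CPM), neutrophil (3325 CPM) and erythroid (4333 CPM) markers and the lowest endothelial markers (3619 CPM) of the 7 libraries. The part of these cells in its values was not tested.

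Plek went the other way. It was at 248.6 and 183.2 CPM in the air lungs of 6 months and at 82.9, 79.5, 94.2, 74.0 and 72.3 CPM in the silica lungs, with every silica library below both air libraries (log2 fold change -1.42 ± 0.15, adjusted p = 0.00481). Without air 19-24 it did not pass (log2 fold change -1.17, adjusted p = 0.0572). Markers of natural killer and large granular lymphocytes were also high in those air lungs, where the 9 genes of the list summed to 3313 and 2848 CPM, against 908.2, 404.8, 313.5, 293.5 and 404.5 CPM in silica, and 8 of the 9 were lower in silica. The 10 T cell genes also summed higher in air (902.4 and 745.1 CPM) than in silica (253.5 to 489.6 CPM), although 8 of them were higher and 2, Cd8a (-2.55 ± 0.50, adjusted p = 0.014) and Lck (-1.86 ± 0.38, 0.0164), were lower in silica; these 2 are named after their values were seen. The air lungs of 1 day had 309.6 to 629.1 CPM of the natural killer and large granular lymphocyte markers and 42.3 to 55.8 CPM of Plek. The part of these lymphocytes in the Plek value was not tested.

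Of the other platelet genes 12 were higher and 14 lower of 70 tested in lung at 6 months, where 9.52% of all genes were higher and 10.1% lower. Their median log2 fold change was 0.0554. Signalling and cytoskeleton genes gave 4 higher and 9 lower of 26, led by Bin2 (-1.53 ± 0.13, adjusted p = 0.00406), the platelet 12-lipoxygenase Alox12 (2.26 ± 0.21, 0.0041) and Rasgrp2 (-1.37 ± 0.16, 0.00515), an activator of Rap GTPases that lymphocytes share. Megakaryocyte transcription factors gave 3 higher and 3 lower of 12, led by Nfe2 (1.34 ± 0.18, adjusted p = 0.0065), Zfpm1 (-1.04 ± 0.16, 0.00838), the partner of GATA1, and Gfi1b (2.08 ± 0.34, 0.00919).

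Granule genes gave 3 higher and 1 lower of 14, with Selp, the P-selectin of platelets and endothelium, at 1.30 ± 0.26 (adjusted p = 0.0158), Pdgfa at 0.63 ± 0.13 (0.018) and Tgfb1 at -0.63 ± 0.14 (0.0216). Adhesion receptors gave 1 higher, Cd226 (1.1 ± 0.28), and 1 lower, the collagen receptor subunit Itga2 (-2.19 ± 0.39), of 12, and activation receptors 1 higher, the protease-activated receptor F2rl2 (1.18 ± 0.30), of 6. Of these 12 named genes only Bin2 passed whichever library was left out. The other 11 did not pass without air 19-24, and their signs held in every setting run. Beside them, 4 of 11 macrophage and 8 of 11 neutrophil genes were higher, and the erythroid genes summed to 1497 to 2737 CPM in air and 2279 to 4333 in silica. The summed macrophage markers were 508.7 and 660.8 CPM in air and 789.5 to 1110 in silica, and neutrophil markers 253.4 and 344.5 in air and 1221 to 3325 in silica. Of the 10 lung epithelial genes 5 were higher and 0 lower, and they summed to 15850 and 20550 CPM in air and 29360 to 63470 in silica. Of the 10 T cell genes 8 were higher and 2 lower. The part of these cells was not tested.

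**Figure D3:**
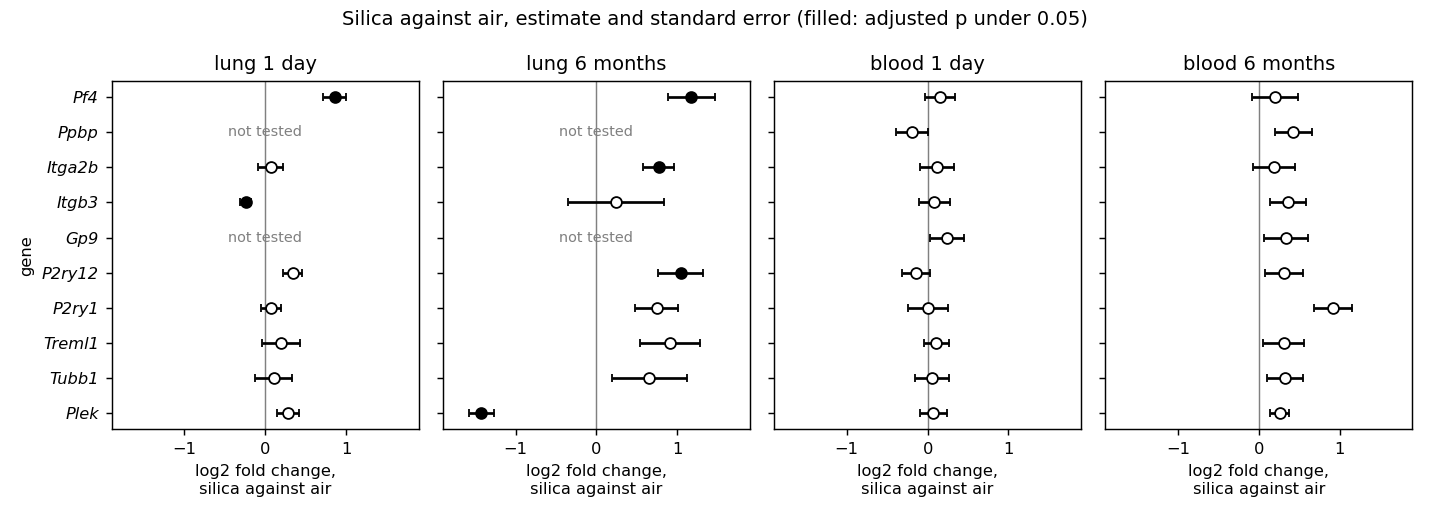
Log2 fold change of silica against air with its standard error for the 10 platelet genes in each tissue and time; filled points passed edgeR's test at an adjusted p under 0.05 over all genes. The filled points are Pf4 and Itgb3 in lung at 1 day and Pf4, Itga2b, P2ry12 and Plek in lung at 6 months, and blood has no filled point.

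Whether the silica effect itself differed between times in lung was tested as an interaction over 16568 genes, of which 4437 (26.8%) passed, 12.2% with a higher and 14.6% with a lower effect at 6 months (1641 in all without air 19-24 of 6 months). Plek alone of the 8 platelet genes tested passed: its effect was lower at 6 months than at 1 day by 1.73 ± 0.21 on the log2 scale (estimate -1.73, adjusted p = 0.000131), and this held without any 1 library, with estimates from -1.902 to -1.48 over all settings. P2ry12 (0.68 ± 0.25, adjusted p = 0.0527), Itga2b (0.67 ± 0.26, 0.0637) and P2ry1 (0.65 ± 0.26, 0.0746) did not pass, and Pf4 gave 0.29 ± 0.30 (0.512). Of 22 other settings, P2ry12 passed in 7 (lowest adjusted p = 0.0104), among them RLE factors (0.0469), total counts alone (0.0495) and DESeq2 (0.0435). Itga2b passed in 3 (lowest adjusted p = 0.0112) and P2ry1 in 2, with near-identical libraries kept separate (0.00752) and without silica 33 (0.0124). Of the other platelet genes 11 were higher and 17 lower of 72, with Alox12 (2.16 ± 0.22) and Nbeal2 (-1.88 ± 0.25) among the signalling genes and Nfe2 (1.09 ± 0.22), Lyl1 (1.33 ± 0.24) and Zfpm1 (-1.09 ± 0.17) among the transcription factors.

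The levels behind these differences were not the same in the 2 sets of air lungs. Itga2b was at 9.18 to 12.1 CPM in air at 1 day and at 4.21 and 5.37 in air at 6 months, while the silica lungs of 6 months stood at 7.17 to 9.42. Pf4 was at 7.74 to 12.1 CPM in air at 1 day, 5.28 and 5.77 in air at 6 months and 9.87 to 19.01 in silica at 6 months. P2ry1 (6.14 to 7.73 and then 4.463 and 4.501 CPM) and Tubb1 (1.78 to 2.54 and then 0.820 and 0.923) were also lower in the later air lungs. So were Itgb3 (22.2 to 26.5 and then 13.3 and 13.4), P2ry12 (3.99 to 4.78 and then 2.25 and 3.73) and Treml1 (1.12 to 1.35 and then 0.519 and 0.911). Plek went the other way, with 42.3 to 55.8 CPM in air at 1 day and 183.2 and 248.6 in air at 6 months. Its silica lungs stood at 44.7 to 72.5 CPM at 1 day and 72.3 to 94.2 at 6 months. Time and count table coincide, so these levels are given side by side with no test. Each time was scaled by its own TMM factors. The share of all genes that separate the 2 sets of air lungs is not given, so these separations stand without a background.

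In blood no gene passed the test at either time. At 1 day 0 of 11876 genes (0%) passed edgeR's test, with 430 (3.62%) at an unadjusted p under 0.05 and 0 by DESeq2. All 10 platelet genes were tested, 8 of them with an estimate above 0, and their median was 0.0788 against -0.0104 for all genes. The groups overlapped for each of the 10, while 0.135% of all genes tested had groups that did not.

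Pf4 had a lowest, median and highest level of 502.9, 684.4 and 893.1 CPM in air and 542.3, 841 and 929 CPM in silica blood at 1 day (0.15 ± 0.19). Ppbp was at 7.91, 13.5 and 17.9 CPM in air and 7.79, 11.6 and 15.9 in silica (-0.19 ± 0.20). Itga2b was at 795.6, 1062 and 1315 CPM in air and 729.9, 988.5 and 1839 in silica (0.11 ± 0.21). The chemokines and the integrin thus differed by less than their spread. Itgb3 (0.09 ± 0.20), Gp9 (0.24 ± 0.21), P2ry12 (-0.14 ± 0.18), P2ry1 (0.01 ± 0.25), Treml1 (0.11 ± 0.16), Tubb1 (0.06 ± 0.21) and Plek (0.07 ± 0.17) did as well. Silica 11, the library with the lowest TMM factor, was at the top for Itga2b, Itgb3 (229.5 CPM), Gp9 (61.7 CPM), Treml1 (170.8 CPM) and Tubb1 (147 CPM). It was at the bottom for P2ry12 (16.5 CPM), P2ry1 (2.29 CPM) and Plek (103.1 CPM). With total counts alone, Itga2b (-0.02), Itgb3 (-0.02), P2ry1 (-0.05), Treml1 (-0.01) and Tubb1 (-0.07) changed sign.

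**Figure D4:**
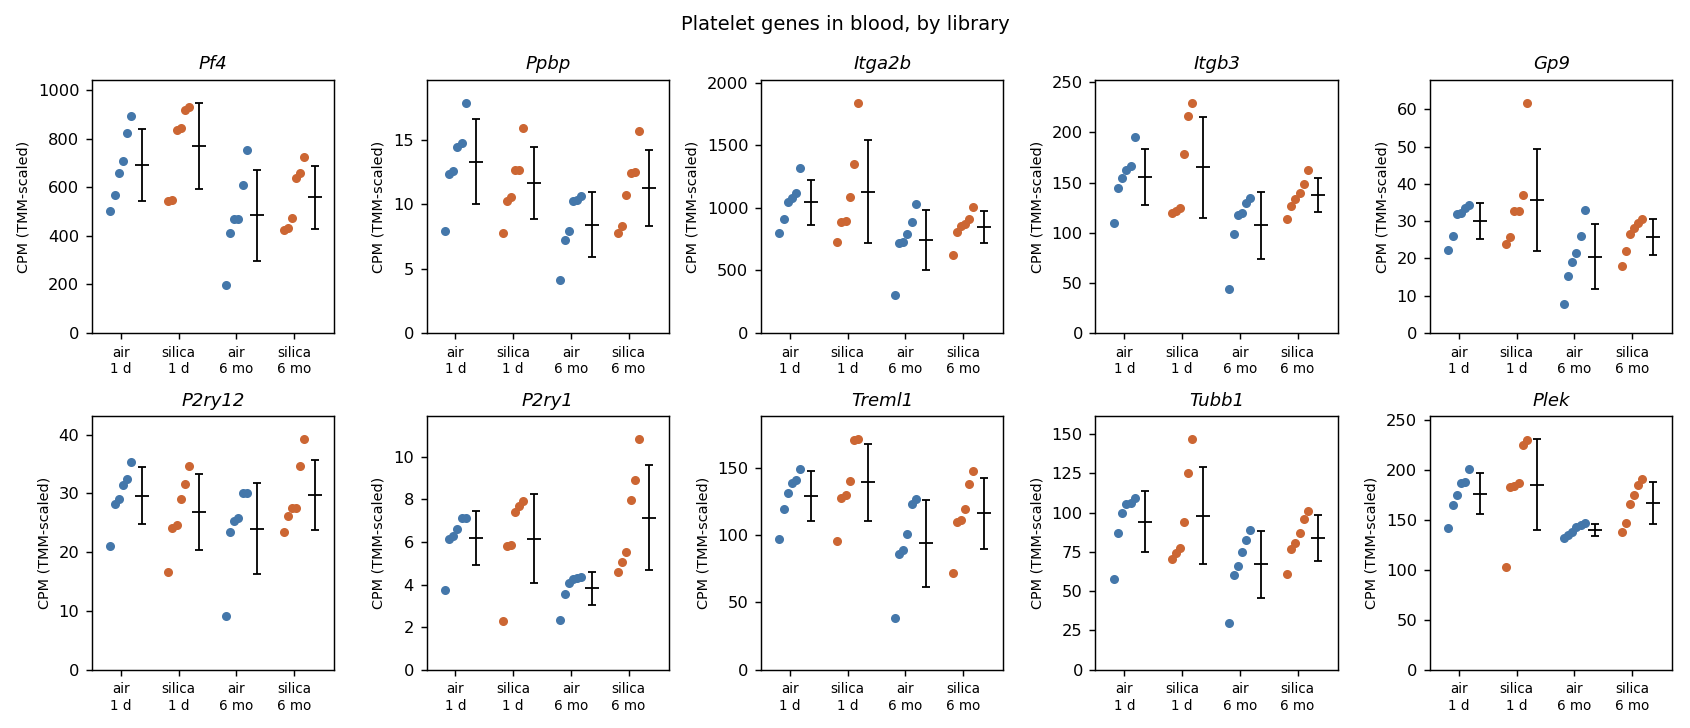
TMM-scaled CPM of the 10 platelet genes in blood, 1 point per library, for air (blue) and silica (orange) at 1 day and 6 months; bars show the mean ± SD. Air and silica overlap for every gene at both times except P2ry1 at 6 months, where the highest air library is at 4.36 and the lowest silica library at 4.57 CPM.

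At 6 months 0 of 11615 genes (0%) passed in blood, with 720 (6.2%) at an unadjusted p under 0.05 and 2 by DESeq2, neither of them among the 10. All 10 platelet genes had an estimate above 0, with a median of 0.317 against 0.00507 for all genes, and none passed. Over the same libraries 15 of 15 erythroid genes (median 0.54) and 11 of 11 neutrophil genes (0.683) were also above 0, and none of those passed. Scaling by total counts alone moved the median of all genes to -0.303 and turned the estimates of Itga2b (-0.01) and Plek (-0.05) below 0. A sign above 0 in all 10 thus depends on the scaling, although both estimates still lay above the median of all genes in that setting.

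P2ry1 showed the widest difference of the 10 in blood. It was at 4.09, 4.25, 4.36, 3.58, 2.32 and 4.32 CPM in the 6 air libraries and at 8.93, 4.57, 5.54, 10.8, 7.98 and 5.06 CPM in the 6 silica libraries. The groups did not overlap, with silica higher, which was so for 0.164% of genes tested, but they did overlap on CPM per total counts, where silica 31 fell to 2.38 and air reached 4.68. The estimate was 0.91 ± 0.23 (edgeR adjusted p = 0.658), between 0.66 and 1.01 over all settings with adjusted p from 0.32 to 0.95, on 34 to 133 counts per library. Without air 25 and silica 31 together, a setting chosen after seeing the data, it was 0.88 ± 0.20 (adjusted p = 0.658).

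Among the others at 6 months, Pf4 had a lowest, median and highest level of 198.7, 469.5 and 753.2 CPM in air and 422.5, 555.6 and 724.1 CPM in silica (0.20 ± 0.28, adjusted p = 0.767). Itga2b was at 307.3, 756.6 and 1028 CPM in air and 622.7, 863.7 and 1005 in silica (0.19 ± 0.26). Plek was at 131.8, 140.1 and 146.2 CPM in air and 137.7, 170.4 and 190.4 in silica (0.26 ± 0.12, adjusted p = 0.658). Air 25, the library with the highest TMM factor, had the lowest air value of each of the 10 genes except Plek. With 1 library left out, all 10 estimates stayed above 0. The lowest were 0.0048 for Itga2b, 0.021 for Pf4 and 0.12 for P2ry12 and for Treml1. Ppbp (0.43 ± 0.23), Itgb3 (0.36 ± 0.22), Gp9 (0.34 ± 0.27), P2ry12 (0.31 ± 0.24), Treml1 (0.31 ± 0.26) and Tubb1 (0.32 ± 0.22) overlapped between groups. In blood the interaction of effect and time called 0 of 12264 genes (335, or 2.73%, at an unadjusted p under 0.05), and the largest estimate among the 10 was that of P2ry1, 0.91 ± 0.35 (adjusted p = 0.999). Whether the silica effect differed between lung and blood was not tested.

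Of the other platelet genes 0 of 69 passed in blood at 1 day (median 0.0368) and 0 of 70 at 6 months (median 0.204). By list, at 6 months, 9 of 12 adhesion receptors, 10 of 12 granule genes, 6 of 7 activation receptors, 19 of 26 signalling genes and 11 of 13 transcription factor entries had an estimate above 0. At 1 day the same lists gave 4 of 12, 7 of 12, 3 of 6, 17 of 26 and 7 of 13. The median over all genes tested was 0.00507 at 6 months and -0.0104 at 1 day, and the former moved to -0.303 with total counts alone. Genes of these lists can vary together across libraries, as Ptgs1, Alox12 and Gp1ba did with the 10. Their signs are therefore not separate evidence, and the counts of signs were not tested. No member of these lists is named, since none passed.

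Within groups of blood libraries, most of the 10 genes varied together. Over the 24 blood libraries, after subtracting each group's mean log2 CPM, Pearson's r of a gene with the mean of the other 9 was 0.937 for Treml1, 0.934 for Pf4, 0.923 for Ppbp, 0.872 for Tubb1, 0.847 for Itgb3, 0.846 for Itga2b, 0.812 for P2ry12 and 0.793 for Gp9. It was 0.505 for P2ry1 and 0.191 for Plek. These libraries share a TMM scaling that moves all genes of a library together, and with total counts alone r was 0.627 for Gp9, 0.703 for P2ry1 and 0.553 for Plek. Itga2b and Gp9, whose promoter windows hold the GATA core printed above, had r = 0.939 with each other, and Tubb1, whose windows hold none, had 0.952 with Itga2b. The correlations describe these libraries and carry no test.

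**Figure D5:**
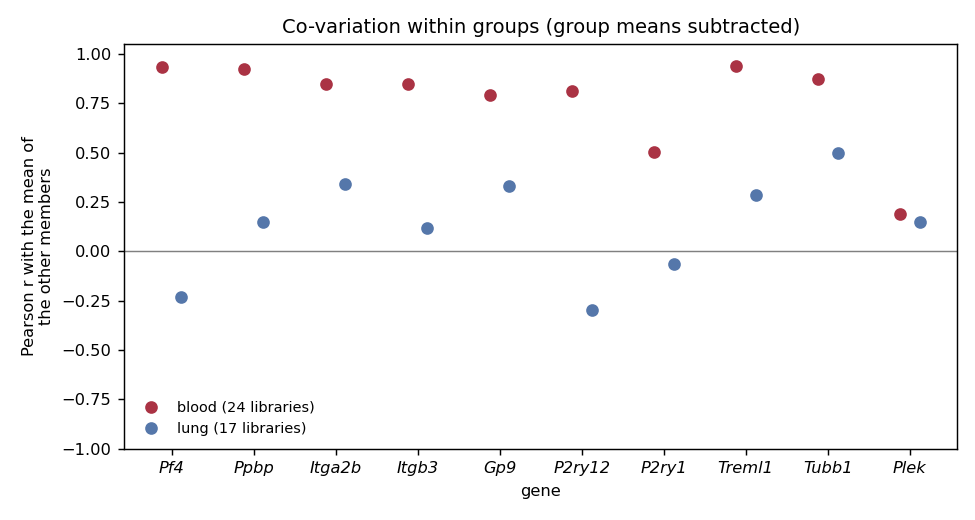
Pearson's r of each gene with the mean of the other 9 over libraries, with group means subtracted, in blood (24 libraries) and lung (17 libraries). In blood 8 genes lie from 0.793 to 0.937, P2ry1 at 0.505 and Plek at 0.191; in lung the values run from -0.296 to 0.497.

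The genes outside the 10 that followed their mean most closely in blood, of 11268 with at least 1 CPM, were Pla1a (r = 0.982), Pla2g2a (0.98), Hpse (0.974), Ptgs1 (0.967), Alox12 (0.959), Pdlim1 (0.957), Osbpl1a (0.957), Gp1ba (0.953), Npy (0.951) and Laptm4b (0.951). Ptgs1, Alox12 and Gp1ba stand on the platelet lists. Ptgs1 is cyclooxygenase-1, Gp1ba the partner of Gp9 in the von Willebrand factor receptor, Hpse heparanase and Pla2g2a a secreted phospholipase. Npy, neuropeptide Y, averaged 4697 CPM in blood.

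In lung the 10 genes did not vary together in that way: over 17 libraries r with the mean of the other 9 ran from -0.296 (P2ry12) to 0.497 (Tubb1), and Pf4 gave -0.233. Ppbp and Gp9 enter these lung means on 0 to 9 counts. Treml1 (0.635) and Gp9 (0.632) had the highest r with Itga2b itself, and Pf4 had 0.133. The genes closest to the lung mean, among 14975, were E2f3 (r = 0.861), Anlnl1 (0.841), Wdr82 (0.83), Ppp1r9b (0.818), Cd163l1 (0.818), Prkag2 (0.81), LOC103692025 (0.81), Dhh (0.802), Ccnd1 (0.787) and Speg (0.783), none of which is on the platelet lists. With so many genes set against 17 libraries, values of this size are given as a ranking only.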

How the data were processed

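RNA was measured in rat lung and in whole blood depleted of globin messenger RNA, with stranded libraries of polyadenylated RNA, per the labels' protocols. Tools listed in the submitters' processing notes are Salmon 1.10.1, STAR 2.6.1d, cutadapt 3.4, Trim Galore 0.6.7 and bcl2fastq 2.19, on the build Rnor_6.0; their settings and the annotation are not given in the sources used here. In the 4 tables deposited by the authors, 1 per tissue and time, each value is a gene's estimated count, unscaled, per the file headers. Salmon splits shared reads by probability, and of the 10 genes only P2ry12 had counts that were not whole (8.7% of samples, tolerance 1e-06).

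Estimated counts were rounded. Samples were compared in pairs within groups by a chi-square test over genes with whole counts in both and a mean of at least 20. Pairs with under 10% of genes at p under 0.05 were averaged; this left 5 averaged pairs in lung and 0 in blood. Each tissue and time was fitted alone in edgeR 4.0.16 (R 4.3.3) with filterByExpr (minimum count 10, total 15), TMM factors, robust quasi-likelihood F tests and Benjamini-Hochberg adjustment over all genes tested, with a threshold of 0.05. Interactions used 1 mean per group of a tissue. Standard errors were taken from the F statistic. Like genes were ranked on log2 CPM with a prior count of 2. The floor is 3 counts, which covers counting error only.

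Alternatives were RLE factors, no factors, no filter, DESeq2 1.42.0, near-identical libraries kept separate, all 4 groups of a tissue in 1 fit, each library left out, and, added after seeing the data, the blood libraries with the lowest and highest TMM factor left out. The fit was tested on simulated counts with the same spread setting for every gene and no outlying library. That test therefore says nothing about how outlying libraries affect the calls here. The 10 genes, the lists and the tests were chosen with earlier results of these data known. All 10 genes are described in every comparison. Of each platelet list, counts are given and at most 3 called genes with the smallest adjusted p are named. Counts of all genes are per identifier, and Gata1 stands on 2 identifiers. Adgre1 and Fasl were not found under these names.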

Additional observations from a re-analysis of the deposited data

Results flagged for a closer look

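Of the 64 pairs of a gene and a group checked for a library standing apart from its group, 9 had a gap beyond Dixon's 95% critical value, and chance alone gives about 1 in 20. In lung, Pf4 of silica 33 at 6 months was far above its group (19.01 CPM), and silica 14 at 1 day was far above for Itga2b (15.9 CPM) and Tubb1 (3.60 CPM). Plek was high in the averaged air library 04-08 at 1 day (55.8 CPM). In blood at 1 day, silica 11 was high for Gp9 (61.7 CPM) and low for P2ry1 (2.29 CPM) and Plek (103.1 CPM), and air 02 was low for P2ry1 (3.73 CPM). In blood at 6 months, air 25 was low for P2ry12 (9.1 CPM). Silica 11 had the lowest TMM factor of its table (0.697) and air 25 the highest (1.93).

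The silica effect on Plek in lung differed between times by the interaction test (-1.73 on the log2 scale, 6 months minus 1 day, edgeR adjusted p = 0.000131).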

How the results depend on the processing

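No paired analysis was possible because the silica and air samples of a tissue and time share no replicate numbers. In lung at 1 day, 594 genes passed in the fit of all 4 groups and 1185 to 2240 with 1 library left out; 2 platelet genes were higher with near-identical libraries kept separate, and 0 were lower in the fit of all 4 groups (0 to 1 with 1 library left out). In lung at 6 months, 6396 genes passed with near-identical libraries kept separate, 6501 in the fit of all 4 groups and 57 (without air 19-24) to 4169 with 1 library left out; 5 platelet genes were higher in each of the first 2 settings, and with 1 library left out 0 to 4 were higher and 0 to 1 lower. Those 2 settings tested 15910 genes with near-identical libraries kept separate and 16568 in the fit of all 4 groups. In blood at 6 months 2 genes passed with DESeq2 and 0 to 2 with 1 library left out. For no alternative setting is the share of all genes called higher or lower given. The counts of platelet genes called in this paragraph therefore stand without a background. For the lung interaction 1641 to 5569 genes passed with 1 library left out, and the platelet genes called higher were 1 with RLE factors, 1 with total counts alone, 2 with DESeq2, 3 with near-identical libraries kept separate and 0 to 1 with 1 library left out. The platelet and list genes gave 464 unchanged outcomes, 13 gained and 10 lost calls and 11 changes of sign in settings that kept every group whole or left out the blood libraries at the ends of the TMM range. With 1 library left out they gave 1041 unchanged outcomes, 6 gained and 70 lost calls and 23 changes of sign.

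With total counts alone in blood the sign changed for Itga2b (-0.0226), Itgb3 (-0.0249), P2ry1 (-0.0470), Treml1 (-0.00601) and Tubb1 (-0.0717) at 1 day, for Itga2b (-0.00547) and Plek (-0.0538) at 6 months and for Plek (-0.0669) in the interaction, and the median of all genes moved to -0.0925 and -0.303 at the 2 times. Without the blood libraries at the ends of the TMM range it changed for P2ry12 (0.0214) and Tubb1 (-0.0195) at 1 day and Pf4 (-0.0910) in the interaction. With 1 library left out, estimates ran from -0.0687 to 0.131 for Itga2b and -0.0844 to 0.196 for Tubb1 in lung at 1 day; in blood at 1 day from -0.0699 to 0.223 for Itga2b, -0.0226 to 0.168 for Itgb3, -0.0962 to 0.177 for P2ry1 and -0.0829 to 0.146 for Tubb1; and in the blood interaction from -0.113 to 0.217 for Pf4, -0.0897 to 0.268 for Itga2b and -0.0805 to 0.325 for Gp9. None of these passed the test in any setting, and the cause was not tested. Depth limits Ppbp and Gp9 in lung (at most 9 counts) and Treml1 and Tubb1 there.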
